A study of Mus musculus with 50 samples.

Results

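The genes examined here drive the copying of DNA and the division of the cell. Of 41 named genes, 22 were taken as replication members and 19 as mitotic members, and every probe annotated to one of these symbols was used. A probe with a single annotated gene was measured for 40 of them, all 22 replication and 18 mitotic members, out of 15312 named genes with a measured probe. Ccnb1, the mitotic cyclin B1, had no such probe and carries no value here. The 40 genes were covered by 68 probes, and 18 genes had more than 1.

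Before a cell divides, the MCM helicase is loaded onto DNA by Cdc6 and Cdt1, and cyclin E with E2F transcription factors starts the copying, which needs nucleotide-making enzymes, primases, polymerases and a ligase. Mitosis then follows under cyclin A, cyclin B and Cdk1, with Aurora and Polo-like kinases building the spindle and checkpoint proteins holding chromosomes until all are attached. In the mouse spleen, dividing cells include erythroid precursors of the red pulp, myeloid precursors and activated lymphocytes, and mRNAs of these genes are commonly read as a mark of cycling cells.

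RNA of whole spleens, all from female mice, was hybridised to 50 arrays with a pair of dyes, 1 array per sample, after CpG oligodeoxynucleotides (ODN), ligands of Toll-like receptor 9, were given into the peritoneum. Each value is a log2 ratio of spleen RNA (Cy5) over a common Universal Mouse Reference RNA (Cy3), so a level of 0 means as much as in that reference, a pool of RNA from mouse cells, and levels of different genes cannot be set against each other. The BALB/c WT groups were an untreated group of 6 arrays, 6 groups of 4 arrays taken 0.5, 1, 3, 9, 24 or 72 h after 400 µg of CpG ODN 1555 and 1466 mixed in equal amounts, and 4 arrays taken 3 h after control ODN 1612 and 1471 at that dose. C57BL/6 control and C57BL/6 TNF-KO mice, the latter lacking tumor necrosis factor, gave 4 untreated arrays and 4 arrays at 3 h after CpG ODN per genotype. The labels give no age for any group and no dose for the C57BL/6 arrays. The C57BL/6 arrays of both CpG groups were placed by their titles, although another label field names untreated mice. Tnf itself had log2 ratios of 0.58 to 0.78 in untreated C57BL/6 control spleen, 3.16 to 4.59 in controls after CpG ODN and -0.61 to 0.43 over the 8 TNF-KO arrays.

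Since whole spleens were used, fewer dividing cells and less of these mRNAs per cell cannot be told apart. Array numbers in the titles form 11 runs of adjacent numbers, the only trace of batches in the labels. All 4 arrays of the 72 h group lay in 1 run with the 4 control ODN arrays and without untreated spleen. Where 72 h is set against untreated spleen or against 24 h, the run therefore cannot be told apart from the group. B cell and T cell markers were above the reference on average on every array. Pancreas markers, from a neighbouring organ, had means from 0.14 to 6.92 over the arrays.

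The region just before the transcription start shows how the replication and mitotic members differ in sequence. Promoters of 34 of the 41 genes were found in RefSeq (assembly GRCm38.p6), and the 250 bases before the start were searched on both strands for the E2F letters TTTCCCGC, TTTGGCGC, TTTCGCGC and TTTGCCGC, for the CHR letters TTTGAA and TTCGAA, the element of mitotic gene promoters, and for CCAAT, the box bound by NF-Y. Matches may overlap each other. Mcm6 is shown as a replication promoter with E2F letters, Mki67 as a mitotic promoter with CHR and CCAAT letters, and Bub1 as a mitotic promoter with CCAAT letters alone. Capitals mark every match, and each sequence runs 5′ to 3′ on the strand of the gene.
Mcm6 (chr1:128359706-128359955, minus strand): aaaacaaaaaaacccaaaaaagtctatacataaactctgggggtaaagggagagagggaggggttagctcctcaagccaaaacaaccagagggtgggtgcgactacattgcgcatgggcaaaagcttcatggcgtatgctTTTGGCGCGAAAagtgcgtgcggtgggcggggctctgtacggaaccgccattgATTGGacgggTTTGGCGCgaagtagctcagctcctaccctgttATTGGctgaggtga
Mki67 (chr7:135716380-135716629, minus strand): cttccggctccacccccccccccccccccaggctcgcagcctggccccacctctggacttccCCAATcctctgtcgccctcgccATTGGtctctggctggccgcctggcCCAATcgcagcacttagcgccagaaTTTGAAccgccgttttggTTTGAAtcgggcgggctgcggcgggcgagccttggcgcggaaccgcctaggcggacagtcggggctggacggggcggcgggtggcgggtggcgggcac
Bub1 (chr2:127831860-127832109, minus strand): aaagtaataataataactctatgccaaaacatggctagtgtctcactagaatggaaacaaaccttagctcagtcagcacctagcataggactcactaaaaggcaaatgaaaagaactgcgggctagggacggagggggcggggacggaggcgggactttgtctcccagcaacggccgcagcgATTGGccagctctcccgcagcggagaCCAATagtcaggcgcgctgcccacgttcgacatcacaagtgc

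E2F letters were in 26.3% of 19 replication promoters, 6.7% of 15 mitotic promoters and 1.9% of the 27025 promoters of all genes. CHR letters showed the other order, with 46.7% of mitotic, 15.8% of replication and 17.4% of all promoters. CCAAT was in 86.7% of mitotic, 52.6% of replication and 34.5% of all promoters, and CHR and CCAAT letters stood together in 46.7% of the mitotic and 6.2% of all. The Mcm6 window held 3 E2F matches, of which 2 overlapped, and 2 CCAAT matches. That of Mki67 held 2 CHR and 3 CCAAT matches. These are letter matches only, and binding was not measured.

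In untreated BALB/c spleen the mean log2 ratio of the replication members was 0.03 ± 0.19 and that of the mitotic members -0.46 ± 0.22 (SD, n = 6). Of the BALB/c groups, both class means were highest at 72 h. The replication mean was -0.33 ± 0.68 at 0.5 h, 0.05 ± 0.46 at 1 h, -0.15 ± 0.24 at 3 h, -0.23 ± 0.32 at 9 h, 0.20 ± 0.22 at 24 h and 0.62 ± 0.29 at 72 h (SD, n = 4 each). The mitotic mean was -1.0 ± 0.91, -0.49 ± 0.70, -0.74 ± 0.25, -0.85 ± 0.33, -0.55 ± 0.29 and 0.40 ± 0.31 at the same times. At 72 h the 4 arrays had means over all members of 0.36, 0.62, 0.89 and 0.21, while the 6 untreated arrays ran from -0.47 to 0.05 with a median of -0.21. The groups did not overlap.

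**Figure D1:**
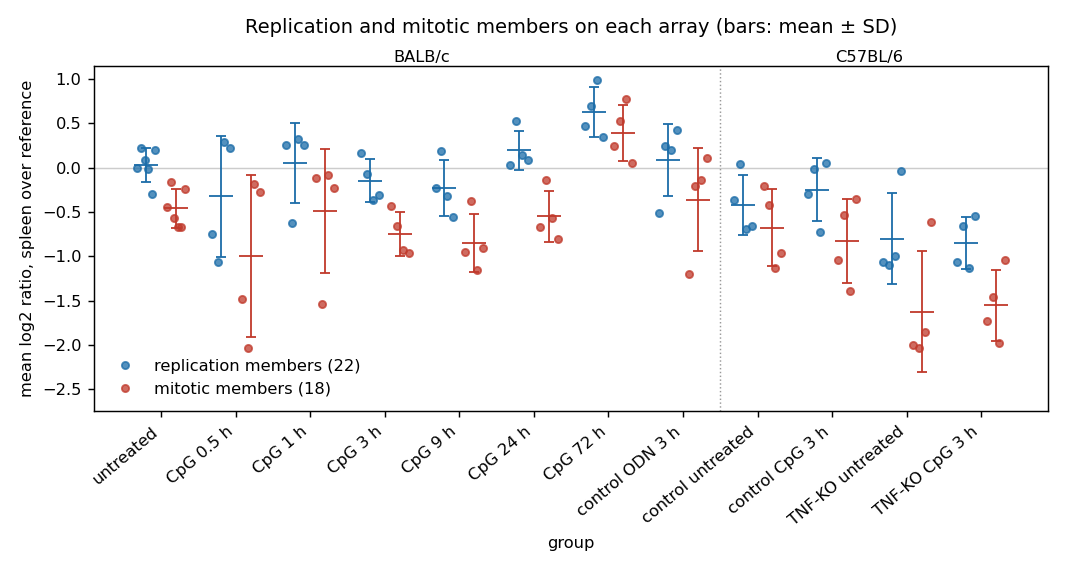
Mean log2 ratio of spleen over reference (y axis) of the replication members (blue, 22 genes) and the mitotic members (red, 18 genes) on each of the 50 arrays, by group (x axis); points are arrays and bars the mean ± SD. The 72 h arrays lie above all untreated BALB/c arrays in both classes. The untreated TNF-KO arrays hold 3 low values and 1 near the C57BL/6 control groups. The CpG-treated TNF-KO group is also low, with means of -0.85 for replication and -1.55 for mitotic members.

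Each comparison below was tested gene by gene with limma, and a gene was called where its Benjamini-Hochberg adjusted p over all genes was under 0.05. At 72 h against untreated spleen 7 of the 40 members rose and none fell, where 10.6% of all genes were called and 6.43% were called higher. A further 32 members had a difference above 0, and 27 members in all had an unadjusted p under 0.05. For counts by sign or by unadjusted p, here and below, the share of all genes was not computed. The shares of genes called cannot be set beside such counts. The median difference was 0.74 over the members (0.68 in replication and 0.86 in mitotic members) and 0.025 over all genes on the log2 scale. On every array of the 72 h group 16 members (6 of 22 replication and 10 of 18 mitotic) were higher than on every untreated array, as were 7.09% of all genes, and Tyms was lower than on every untreated array, as were 4.29% of all genes. That holds for the Tyms probe used, with a difference of -0.31, while its other probes gave 0.57, 0.85 and 0.71.

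The replication members that rose cover licensing, initiation and strand synthesis. Fen1, the flap endonuclease that trims Okazaki fragments, had log2 ratios of 0.43, 0.61 and 1.18 (lowest, median and highest) in untreated spleen and of 1.22, 1.65, 2.52 and 1.13 at 72 h. Replicate 3 was the highest 72 h array, and replicate 4 lay just under the highest untreated array. The difference was 0.97 ± 0.29 (SE, adjusted p = 0.0277, limma). Gins1, a subunit of the GINS complex of the replicative helicase, ran from -0.81 to -0.16 with a median of -0.25 in untreated spleen and reached 0.22, 0.56, 0.92 and -0.01 at 72 h, with no overlap (0.75 ± 0.22, adjusted p = 0.024, limma). Ccne1, cyclin E1, which starts S phase with Cdk2, ran from -1.18 to 0.08 with a median of -0.52 and stood at 0.98, 1.72, 0.55 and -0.57 at 72 h. Only replicate 4 fell inside the untreated range. Its difference was 1.20 ± 0.36 (adjusted p = 0.0283, limma), but a second probe of Ccne1 gave -0.24. Prim1, the catalytic primase subunit, rose by 0.88 ± 0.28 (adjusted p = 0.0358), and Mcm6, part of the MCM ring, by 0.98 ± 0.32 (adjusted p = 0.047), with other Mcm6 probes at 0.82 and 0.04.

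The mitotic members that rose both belong to the spindle checkpoint. Bub1, a checkpoint kinase at the kinetochore, ran from -2.23 to -1.61 with a median of -1.79 in untreated spleen and stood at -0.76, -0.67, -0.03 and -0.94 at 72 h. All 4 values lay above all untreated ones (1.26 ± 0.33, adjusted p = 0.0142, limma), the smallest adjusted p among the members. Mad2l1, which holds back the anaphase-promoting complex, ran from -0.71 to -0.20 with a median of -0.53 and reached 0.26, 0.37, 0.73 and -0.01 (0.84 ± 0.24, adjusted p = 0.0245). Cdc20, the activator that Mad2l1 blocks, missed the threshold. Its untreated values ran from -1.34 to -0.73 with a median of -1.05, and those at 72 h were -0.62, -0.18, 0.47 and -0.74, so that replicate 4 met the untreated range (0.78 ± 0.27, adjusted p = 0.0528). Other Cdc20 probes gave 0.80 and -0.02.

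The other members at 72 h are given by their differences, none of which passed. In licensing and fork genes these were 0.55 ± 0.33 for Mcm2, 0.37 ± 0.28 for Mcm3, 0.22 ± 0.37 for Mcm4, 0.72 ± 0.30 for Mcm5, 0.49 ± 0.28 for Mcm7, 0.31 ± 0.52 for Cdc6 and 0.46 ± 0.26 for Cdt1. The sliding clamp gene Pcna stood at 0.71 ± 0.25, its loader subunit Rfc4 at 0.73 ± 0.32, the polymerase alpha gene Pola1 at 0.63 ± 0.26 and the DNA ligase gene Lig1 at 0.71 ± 0.27. Nucleotide enzymes had 0.66 ± 0.33 for Rrm1, the large subunit of ribonucleotide reductase, 0.82 ± 0.35 for Tk1, thymidine kinase, 0.04 ± 0.17 for Rrm2, the small subunit, and -0.31 ± 0.17 for Tyms, thymidylate synthase. Of the regulators, Ccne2, the second cyclin E, had 0.76 ± 0.48 and E2f1, an activator of S phase genes, 0.44 ± 0.25. The smallest adjusted p among these 17 genes was 0.0618, that of Pcna.

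Among the mitotic members that did not pass, Ccnb2, cyclin B2, had 1.18 ± 0.49 and Top2a, the topoisomerase that untangles sister chromatids, 1.16 ± 0.41. Birc5 and Cdca8, survivin and borealin of the chromosomal passenger complex, stood at 1.03 ± 0.37 and 0.72 ± 0.27, and the kinase of that complex, Aurkb, at 0.27 ± 0.20. Ttk, the checkpoint kinase MPS1, had 1.02 ± 0.36, Bub1b 0.81 ± 0.30, Aurka 0.92 ± 0.38 and its spindle activator Tpx2 0.86 ± 0.30. Cyclin A2 and its partner kinase gave 0.88 ± 0.42 for Ccna2 and 0.86 ± 0.35 for Cdk1. Plk1, Polo-like kinase, had 0.60 ± 0.24, the spindle motor Kif11 0.70 ± 0.31, the transcription factor Foxm1 0.59 ± 0.26 and Mki67, the Ki-67 antigen, 0.86 ± 0.59. Of these 15 genes the smallest adjusted p was 0.0597, that of Ttk.

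**Figure D2:**
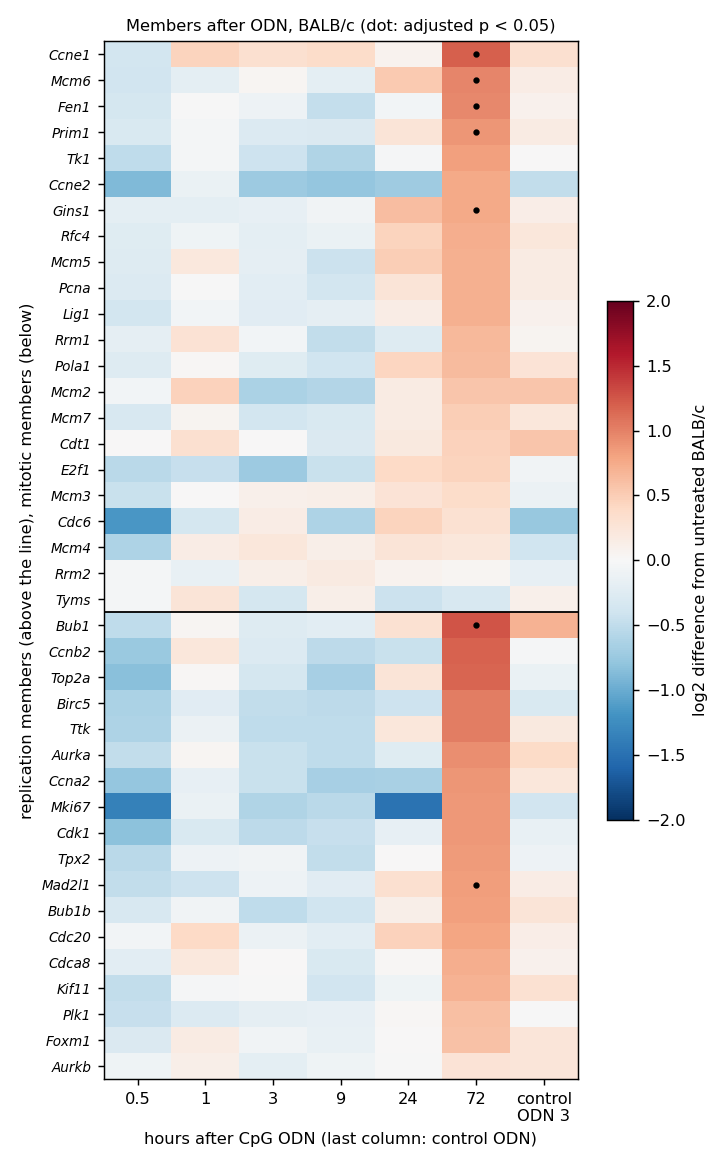
Log2 difference from untreated BALB/c spleen (colour) of each member (rows) at each time after CpG ODN and 3 h after control ODN (columns), with replication members above the line and mitotic members below, each sorted by the 72 h difference. Dots mark adjusted p-values under 0.05, which 7 members reached at 72 h.

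The 72 h count moved with single arrays. It was 0 without replicate 3 and 1 without replicate 2 of the 72 h arrays, 1 without replicate 5 and 4 without replicate 4 of the untreated arrays, and 14 (7 in each class) without replicate 4 of the 72 h arrays. For fits that left out 1 array, here and below, the share of all genes called is not given. Of 22 erythroid markers 4 were called higher at 72 h with no array left out and none lower, with a median of 0.74. Their mean ran from 3.56 to 4.55 at 72 h and from 3.36 to 3.94 in untreated spleen. Neutrophil lineage markers, a list that holds Mpo and Elane but also Lcn2, S100a8 and S100a9, rose in 6 of 15 cases with a median of 1.02. At 3 h 5 of these 15 were already called higher. Macrophage and monocyte markers rose at 72 h in 4 of 9 cases and natural killer cell markers in 3 of 10, while 3 of 11 B cell and 5 of 11 T cell markers fell. The part of these cells in the difference was not tested. The control ODN arrays of the same run had member means of -0.81, 0.04, 0.05 and 0.28, so that 1 of them lay above the lowest 72 h array.

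Other genes of the same processes were also counted at 72 h, where 6.43% of all genes were called higher. Of 41 measured other replication genes 12 rose and none fell, with a median of 0.61, led by the primase subunit Prim2 (1.43 ± 0.34, adjusted p = 0.00652), the helicase Mcm8 (1.02 ± 0.24), the replication factor Mcm10 (0.82 ± 0.23), Cdc45, the partner of MCM and GINS at the fork (1.12 ± 0.28), Rpa2, which coats single strands (0.98 ± 0.26), and Rnaseh2b (0.92 ± 0.25). Of 44 other mitosis genes 9 rose and none fell, with a median of 0.72. Among them were the condensin genes Smc2 (1.17 ± 0.28) and Ncaph (1.06 ± 0.26), sororin or Cdca5 (0.85 ± 0.23), the tubulin-binding Stmn1 (0.92 ± 0.28), securin or Pttg1 (1.13 ± 0.35) and the kinase Melk (0.75 ± 0.24). Of these 12 named genes Ncaph and Melk alone kept their call without replicate 3 of the 72 h arrays, where Prim2 stood at 1.08 (adjusted p = 0.0626) and Mcm10 at 0.53 (adjusted p = 0.156). With 1 of the 10 arrays left out in turn, Stmn1 and Pttg1 kept their call in 4 fits each and Melk in 3.

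Between 24 and 72 h, of the 40 members 2 rose, both mitotic, where 3.33% of all genes were called and 2.26% called higher. The median difference was 0.82 over the mitotic and 0.31 over the replication members, against -0.042 over all genes, and the difference between the classes was not tested. All 4 arrays at 72 h were above all 4 at 24 h for 10 of 18 mitotic and 3 of 22 replication members, and for 3.56% of all genes, and no member was lower on all 4, as 3.42% of all genes were. Mki67 had log2 ratios of -0.61, -0.49, -0.41 and 0.59 at 24 h and 2.15, 2.22, 2.30 and 1.74 at 72 h. The groups lay far apart, and replicate 4 was the highest array at 24 h and the lowest at 72 h. The difference was 2.33 ± 0.65 (adjusted p = 0.037, limma), and a second probe gave 2.35. Birc5 stood at -0.09, 0.22, -0.26 and -0.40 at 24 h and at 1.21, 1.47, 1.46 and 1.07 at 72 h, again with no overlap (1.44 ± 0.41, adjusted p = 0.0422, limma), and other probes gave 1.43 and 0.90. Ccna2 (1.53 ± 0.46, adjusted p = 0.0612), Ccnb2 (1.62 ± 0.54, adjusted p = 0.0932) and Fen1 (1.03 ± 0.31, adjusted p = 0.0642) had differences of similar size that did not pass.

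**Figure D3:**
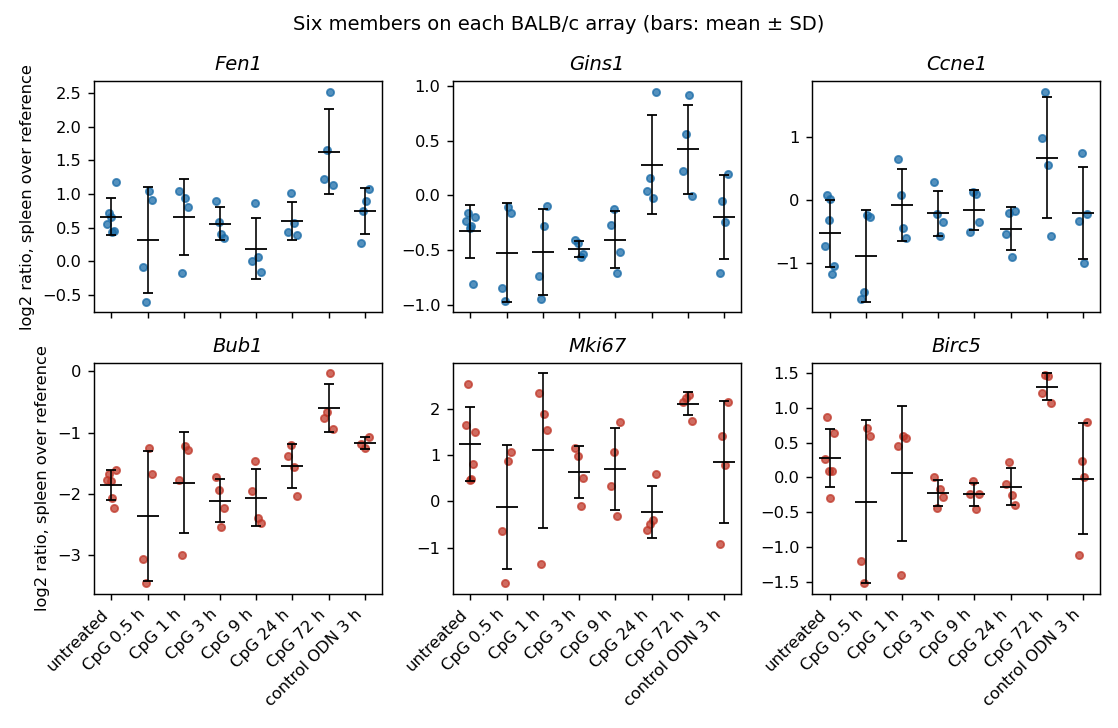
Log2 ratio of spleen over reference (y axis) of the replication members Fen1, Gins1 and Ccne1 (blue) and the mitotic members Bub1, Mki67 and Birc5 (red) on each BALB/c array by group (x axis), with bars for the mean ± SD. Mki67 lies between -0.61 and 0.59 at 24 h and between 1.74 and 2.30 at 72 h, while Gins1 is already at 0.28 ± 0.45 at 24 h.

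That count of 2 became 0 without replicate 1 or 3 of the 24 h arrays or without replicate 1, 2 or 3 of the 72 h arrays, 1 without replicate 4 and 4 without replicate 2 of the 24 h arrays, and 5 without replicate 4 of the 72 h arrays. Erythroid markers rose in 16 of 22 cases between 24 and 72 h, with a median of 1.58, and their mean ran from 2.35 to 3.20 at 24 h. Their part in the difference was not tested. Of the other mitosis genes 8 of 44 rose and none fell, with Cdc25b, the phosphatase that activates Cdk1, at 1.95 ± 0.33 (adjusted p = 0.000819), the centromere histone Cenpa at 1.28 ± 0.30, and the kinesins and cytokinesis genes Kif18a (1.41 ± 0.38), Ect2 (1.47 ± 0.40), Kif22 (1.12 ± 0.31) and Prc1 (1.48 ± 0.41). With 1 of the 8 arrays left out in turn, Kif18a, Ect2 and Prc1 kept their call in 2 fits each and Kif22 in 3. None of 41 other replication genes passed in that interval, in which 7 had an unadjusted p under 0.05.

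At 24 h no member passed against untreated spleen by limma (8.45% of all genes were called), 3 had an unadjusted p under 0.05, and between 0 and 1 member was called with other settings. The median difference was 0.22 over the replication and 0.0034 over the mitotic members, a difference that was not tested. The replication value depends on the probes. Its class mean was 0.03 untreated and 0.20 at 24 h by the probes used, but -0.02 and 0.07 with the mean of all probes of each gene. Cdc6 went from 0.81 to 1.26 by the probe used and from 0.63 to 0.56 and 0.81 to 0.18 by its others. Both Rfc4 probes rose, from -0.20 to 0.24 and from -0.12 to 0.31. Gins1 stood at 0.04, 0.16, -0.02 and 0.95, above all untreated arrays, as were 6.14% of all genes (0.61 ± 0.22, adjusted p = 0.0744), and Mki67 had -1.47 ± 0.59 (adjusted p = 0.122). Other replication genes had 3 of 41 higher and none lower, namely Mcm8 (0.84 ± 0.24), the origin recognition gene Orc4 (0.48 ± 0.14) and the clamp loader gene Rfc3 (0.62 ± 0.20). Other mitosis genes had 2 of 44 lower and none higher, Cdc25b (-1.43 ± 0.30, adjusted p = 0.00157) and Mybl2, a transcription factor of late cell cycle genes (-0.69 ± 0.19). Both counts lie below the share of all genes called, and with 1 of the 10 arrays left out in turn Orc4 kept its call in 4 fits and Rfc3 in 2. Erythroid markers fell in 7 of 22 cases at 24 h, with a median of -0.93, and their part was not tested.

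The gap between the classes, the replication mean minus the mitotic mean, was computed for each array. It was 0.49 ± 0.13 (0.37 to 0.65, n = 6) in untreated BALB/c spleen, 0.75 ± 0.11 (0.66 to 0.91, n = 4) at 24 h and 0.23 ± 0.04 (0.19 to 0.28, n = 4) at 72 h. Both groups lay outside the untreated range, on opposite sides of it, and these ranges were not tested. With the mean of all probes of each gene the gap was 0.33 to 0.53 untreated, 0.51 to 0.83 at 24 h and 0.02 to 0.29 at 72 h, so that 24 h then overlapped untreated spleen and 72 h did not. With arrays scaled to the same spread it was 0.38 to 0.74, 0.61 to 0.91 and 0.20 to 0.35, with the same overlap at 24 h only. The gap in the C57BL/6 groups was 0.26 ± 0.29 in untreated controls, 0.58 ± 0.16 in controls after CpG ODN, 0.83 ± 0.17 in untreated TNF-KO and 0.70 ± 0.16 in TNF-KO after CpG ODN (SD, n = 4 each).

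**Figure D4:**
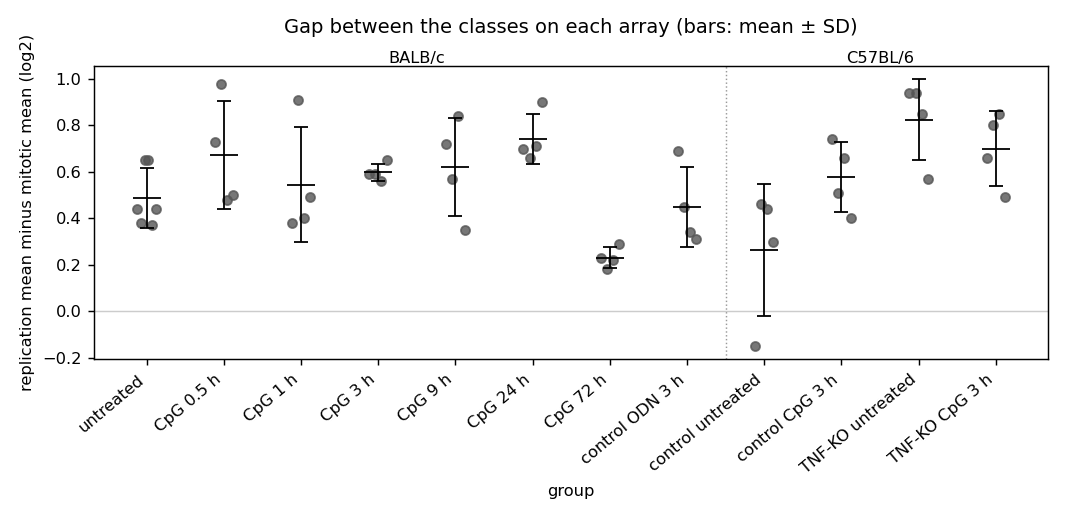
Mean log2 ratio of the replication members minus that of the mitotic members (y axis) on each array, by group (x axis), with bars for the mean ± SD. The 4 arrays at 72 h lie below and the 4 at 24 h above the 6 untreated BALB/c arrays.

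From 9 to 24 h no member passed by limma (6.93% of all genes were called), while 10 had an unadjusted p under 0.05 and 36 of 40 were above 0. E2f1 (0.83 ± 0.27, adjusted p = 0.0536), Gins1 (0.69 ± 0.24), Pola1 (0.83 ± 0.29) and Mcm5 (0.93 ± 0.33) had the smallest p-values among those higher. Leaving out replicate 2 of the 9 h arrays gave 3 calls and replicate 4 of the 24 h arrays gave 4. Within the run that held 4 of the 9 h and 3 of the 24 h arrays the replication mean differed by 0.48 and the mitotic mean by 0.34. Of 41 other replication genes 5 rose and none fell, Orc2 (0.82 ± 0.25), Rpa1 (0.63 ± 0.19), Rfc1 (0.54 ± 0.17), Rpa2 (0.90 ± 0.28) and Mcm8 (0.86 ± 0.27), and none of 44 other mitosis genes did, with 4 at an unadjusted p under 0.05. Each of these 5 calls was lost without arrays of a pancreas mean over 5 and was kept in 2 or 3 of the 8 fits that left out 1 array. Erythroid markers had 2 of 22 lower.

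In the first 9 h after CpG ODN no member passed against untreated spleen. The share of all genes called was 0.256% at 0.5 h, 3.3% at 1 h, 9.96% at 3 h and 6.96% at 9 h, and the number of members with an unadjusted p under 0.05 by limma was 5, 0, 2 and 0. Differences below 0 were found for 39 of 40 members at 0.5 h, 22 at 1 h, 32 at 3 h and 35 at 9 h, with medians of -0.38, -0.019, -0.20 and -0.38. All these comparisons share the same 6 untreated arrays. At 0.5 h the member means of the 4 arrays were -1.08, -1.50, 0.07 and -0.00, so that replicates 1 and 2 lay far below and replicates 3 and 4 within or near the untreated range. Their erythroid means were 3.01, 2.40, 3.61 and 3.83, and their part was not tested. At 1 h the means were 0.09, -1.04, 0.14 and 0.04, with replicate 2 alone low.

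Within runs, the member means differed from untreated spleen by -0.39 at 0.5 h, by -0.24 and 0.04 in the 2 runs that held 1 h arrays, and by -0.66 at 3 h in the run of replicates 3 and 4, which held 1 untreated array. The 9 h arrays had means of -0.55, -0.07, -0.70 and -0.72 and shared no run with untreated spleen. Of 41 other replication genes 1 was called at 3 h and 1 at 9 h, and of 44 other mitosis genes 1 and 2. These counts lie below the shares of all genes called, 9.96% at 3 h and 6.96% at 9 h. Rpa1, which binds single-stranded DNA, fell at 3 h (-0.81 ± 0.18, adjusted p = 0.00132) and 9 h (-0.63 ± 0.18, adjusted p = 0.0204). Pttg1 rose at 3 h (1.17 ± 0.35, adjusted p = 0.0256), and Smc4 (-0.65 ± 0.19) and Kif23 (-0.80 ± 0.25), a condensin and a kinesin of cytokinesis, fell at 9 h. With 1 of the 10 arrays left out in turn, Smc4 kept its call in 4 fits, Kif23 in 3, Pttg1 at 3 h in 6 and Rpa1 at 9 h in 7. Each of these calls was lost with the replicate number or the array run as a block. Over the alternatives Pttg1 at 3 h was as low as 0.39. Rpa1 at 3 h lost its call without arrays of a pancreas mean over 5.

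After control ODN no member passed at 3 h (1.42% of all genes were called), 1 had an unadjusted p under 0.05 by limma, and the median difference was 0.13. Between CpG and control ODN at 3 h Mcm2 fell and no other member was called, where 18.3% of all genes were called and 10.9% called lower. That 1 call among 40 members lies below the share of all genes called lower. Mcm2, a subunit of the MCM helicase, had log2 ratios of 0.50, -0.04, -0.44 and -0.35 after CpG ODN and of 0.79, 1.10, 1.21 and 1.33 after control ODN, with no overlap (-1.19 ± 0.36, adjusted p = 0.02, limma). It lost its call without replicate 3 or 4 of the CpG arrays or replicate 3 of the control ODN arrays, and 2 members passed without replicate 1 of the control ODN arrays. Tyms, the next smallest p, stood at 0.48, 0.17, 0.22 and 0.64 against 0.49, 0.57, 1.13 and 1.13 (-0.45 ± 0.18, adjusted p = 0.0857), and the groups overlapped. Within groups the Tyms probe used had r = 0.09 with the mean of the other members, and its other probes were not compared between these treatments. The groups share no run, and the run cannot be told apart from the treatment. Of other replication genes Rpa1 (-1.38 ± 0.19, adjusted p = 3.18e-06), Pold1 (-0.70 ± 0.21) and Pold3 (-0.57 ± 0.20), both subunits of polymerase delta, fell and none of 41 rose, and Pold3 kept its call in 2 of the 8 fits that left out 1 array. Of 44 other mitosis genes Cdc25a, a phosphatase that activates cyclin-dependent kinases (1.26 ± 0.34, adjusted p = 0.00885), and Pttg1 (1.19 ± 0.38, adjusted p = 0.0285) were higher and Kif23 (-0.88 ± 0.27, adjusted p = 0.0223) lower. The counts of other replication and other mitosis genes lie below the 18.3% of all genes called. Erythroid markers fell in 4 of 22 cases, B cell markers in 3 of 11 and T cell markers in 3 of 11, and their part was not tested.

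In C57BL/6 mice no member passed 3 h after CpG ODN, neither in controls (7.7% of all genes called, 3 members at an unadjusted p under 0.05 by limma) nor in TNF-KO mice (3.77% called, 0 members at an unadjusted p under 0.05). The median differences were 0.052 and 0.040. Leaving out replicate 2 of the control CpG arrays gave 1 call. The difference of both responses had no member called by limma (0.0268% of all genes, 1 member at an unadjusted p under 0.05), nor had the difference between the C57BL/6 control and BALB/c responses (0.453% of all genes, 0 members at an unadjusted p under 0.05). Within runs the member means of treated minus untreated control arrays were -0.46, -0.14 and 0.54, and those of TNF-KO arrays 0.11 and -0.47.

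Untreated TNF-KO spleen held 3 arrays with the lowest member levels of the untreated groups and 1 without. The member means were -1.48, -1.52, -1.38 and -0.30 in replicates 1 to 4 of TNF-KO and -0.29, -0.17, -0.89 and -0.79 in those of the controls. No member passed by limma (0.595% of all genes were called, 14 members at an unadjusted p under 0.05), with a median difference of -0.40 over the replication and -0.89 over the mitotic members and of 0.033 over all genes. Mki67 had -2.79, -2.56, -2.98 and 0.36 against 1.59, 0.60, -0.49 and 0.27 (-2.49 ± 0.64, adjusted p = 0.0893), and Birc5 had -1.99, -2.05, -1.91 and -0.05 against 0.48, 0.37, -0.70 and -0.17 (-1.49 ± 0.40, adjusted p = 0.112). In both genes replicate 4 alone met the control range. Rrm2 alone was lower on every TNF-KO than on every control array and no member was higher on every one, each of which held for 2.94% of all genes. Within groups the Rrm2 probe used had r = 0.06 with the mean of the other members, and its other probes were not compared between the genotypes. Leaving out 1 of the 8 arrays in turn gave 0 to 13 called members. The 13 (11 mitotic and 2 replication, all lower) came without replicate 4 of the untreated TNF-KO arrays, the array with the highest member mean of that group, and are a description that supports no call.

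Replicate 4 of the untreated TNF-KO arrays lay in a run with no untreated control array. In the 3 runs that held 1 array of each genotype the member mean of TNF-KO was lower by 1.31, 0.63 and 0.59. With the run as a block 7 members were called lower. The share of all genes called in that fit is not given here, so the count cannot be read as particular to the members. Erythroid markers were 1.61, 1.37, 1.38 and 3.66 on the same 4 arrays and 3.52 to 4.53 in the controls, with 8 of 22 called lower and none higher and a median of -2.37, and their part was not tested. After CpG ODN the TNF-KO arrays had member means of -1.36, -1.02, -1.52 and -0.77 and the control arrays -0.63, -0.25, -1.03 and -0.13. No member passed by limma (0.368% of all genes called, 16 members at an unadjusted p under 0.05). On every CpG-treated TNF-KO array 6 of 40 members were lower than on every control array (Mcm3, Ccne2, Ccnb2, Cdk1, Birc5 and Foxm1), as were 2.45% of all genes, and none was higher on every one, as 4.34% of all genes were. Erythroid means were 2.64, 2.56, 1.63 and 3.27 on these TNF-KO arrays and 3.63, 3.49, 2.95 and 3.69 on the controls, with a median difference of -1.07 and 20 of 22 markers below 0. None of the 22 was called by limma, 9 had an unadjusted p under 0.05, and their part was not tested.

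Between the untreated strains Cdc6 and Ttk were lower in C57BL/6 control than in BALB/c spleen, where 14.5% of all genes were called and 6.06% called lower. Their count, 2 of 40 members, lies below the share of all genes called lower. Cdc6, which loads the MCM ring, ran from -0.00 to 1.24 with a median of 0.94 in BALB/c and stood at -2.06, 0.77, -1.36 and -0.95 in C57BL/6, where replicate 2 lay inside the BALB/c range (-1.71 ± 0.53, adjusted p = 0.0232, limma). Ttk ran from -1.20 to -0.40 with a median of -0.71 against -1.59, -1.63, -2.32 and -1.97, with no overlap (-1.11 ± 0.36, adjusted p = 0.0283, limma). Both calls were lost without replicate 3 or 4 of the C57BL/6 arrays, and 1 was left without replicate 1 of those or without replicate 1 or 2 of the BALB/c arrays. The strains shared no run. Of other replication genes 6 of 41 were lower and none higher, with Orc5 (-0.77 ± 0.16, adjusted p = 0.000735), Rfc5 (-0.50 ± 0.12) and Gins4 (-0.74 ± 0.19) first. Markers of other cells were higher in C57BL/6 spleen in 6 of 11 cases for T cells, 5 of 15 for the neutrophil lineage, 4 of 10 for natural killer cells (1 lower) and 3 of 22 for erythroid cells (1 lower), and their part was not tested.

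Within groups the members varied together and more than most genes. The median within-group SD was 0.46 over the replication and 0.56 over the mitotic members and 0.31 over all 15262 genes, and 38 of 40 members lay above the median of all genes. Mki67 (1.04), Cdc6 (0.89) and Ccne2 (0.86) varied most, and the probes used for Rrm2 (0.25) and Tyms (0.28) least. Within groups these 2 probes had r = 0.06 and 0.09 with the mean of the other members, lower than each other probe of the same gene. Deviations from the group mean had a median Pearson r of 0.58 over pairs of replication members, 0.75 over pairs of mitotic members and 0.65 between the classes, and of 0.01 over all pairs of 11988 genes (50 arrays). The class means on an array deviated together with r = 0.96. These arrays share the reference RNA and the lowess step, and the values are a description.

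Of the single genes, Ccna2 had the closest correlation of within-group deviations with those of the mean of the other members (r = 0.97 over 50 arrays). Ccne2 (0.95), Bub1 (0.94, 49 arrays) and Birc5 (0.93) followed. The next values are correlations of levels, which include differences between groups, and cannot be set against these. The named genes outside the members whose levels were most like the mean of the 39 members measured on every array were Brca1 (r = 0.960), Cenph (0.957), Aspm (0.955), Shcbp1 (0.953), Spc25 (0.952), Blm (0.950), Nuf2 (0.948), Ncapg (0.947), Sgo1 (0.946) and Orc1 (0.944), out of 11949 genes compared over 50 arrays.

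Deviations of the replication and mitotic means within groups had r = 0.82 and 0.85 with those of 22 erythroid markers, the highest of the 9 marker lists. For T cell markers r was -0.46 and -0.50, for B cell markers -0.32 and -0.38, for neutrophil lineage markers -0.02 and -0.01 and for germinal centre and plasma cell markers -0.26 and -0.18. At 24 h the erythroid means of 2.58, 3.20, 2.35 and 2.70 lay below the untreated range of 3.36 to 3.94. The member means of -0.28, 0.22, -0.18 and -0.31 lay within or above the untreated range of -0.47 to 0.05. Single members were split, as 27 of 40 had a difference above 0 and 13 below. Among those below, group means went from 1.24 untreated to -0.23 for Mki67, from 1.07 to 0.36 for Ccne2 and from 0.23 to -0.42 for Ccna2. The part of erythroid cells was not tested.

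**Figure D5:**
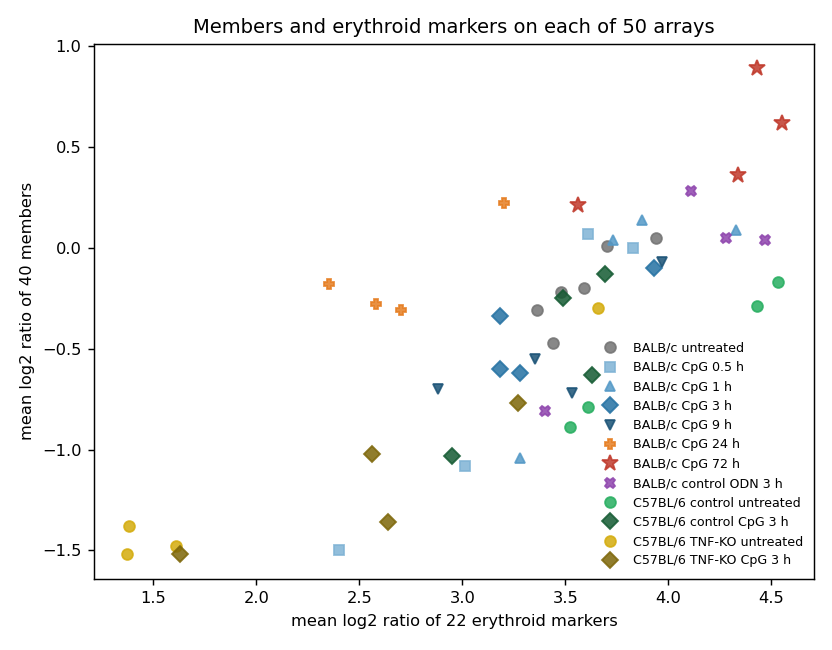
Mean log2 ratio of the 40 members (y axis) against that of the 22 erythroid markers (x axis) on each of the 50 arrays, with a symbol per group. Untreated TNF-KO replicates 1 to 3 lie lowest on the x axis (1.37 to 1.61), 72 h replicates 1 to 3 lie highest on the y axis (0.36 to 0.89), and the 24 h arrays lie above other arrays with erythroid means of 2.35 to 3.20.

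Probes of a gene did not always give the same value. Each r in this paragraph is that of within-group deviations. Rrm2 stood at r = 0.06 with the other members by the probe that represents it and at 0.68, 0.62 and 0.64 by its other probes. Tyms stood at 0.09 by the probe used and at 0.62, 0.85 and 0.84 by the others, whose differences at 72 h from untreated spleen were 0.57, 0.85 and 0.71 in place of -0.31. Cdk1 had a difference of 0.86 at 72 h by the probe used (-0.53, -0.35, -1.02, -1.09, -1.19 and -0.56 untreated; 0.10, 0.31, -0.10 and -0.03 at 72 h) and of -0.12 by another with r = -0.05. Lig1 gave 0.71, 0.03 and 0.37, Tk1 0.82, 0.49 and 0.11, and Plk1 0.60 and 0.05. Probes of Ccne2, Mki67, Birc5, Cdca8, Foxm1 and Rfc4 agreed in direction at 72 h in every case, for example 0.76 and 1.21 for Ccne2 and 0.59 and 0.79 for Foxm1.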

How the data were processed

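The values are the log2 ratios of spleen (Cy5) over reference (Cy3) that the authors deposited, 1 column per array. According to the design text the authors corrected background, dropped flagged spots and those dim in both channels (under 100), and normalized the log2 ratios by lowess, in BRB ArrayTools and mAdb, keeping genes on over 70% of arrays. Versions and a genome build are not given in the sources used here. Signals were not used, so signal over background is unknown, and the number of arrays limits precision. Between 27619 and 30590 of 36607 probes had a value on an array. Channel order in the labels is turned for 0.5 h, the dyes are not, and since the lowest correlation between any 2 arrays was 0.661, no sign was turned.

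Gene names came from the annotation of the platform (26926 probes with 1 gene symbol, 203 with several, 9478 with none; symbols updated through gene identifiers for 26774 probes), and only probes with 1 symbol entered. Arrays were centred on their median over probes present on over 70% of the arrays of a fit. The probe with most values stood for a gene, ties going to the first listed. limma 3.58.1 (lmFit and eBayes, R 4.3.3) was fitted on group means over 34 BALB/c arrays (15264 genes), 16 C57BL/6 arrays (14951) or all 50 (15262, strain comparisons), with Benjamini-Hochberg adjustment over all genes and a threshold of 0.05. The median residual SD was 0.299, 0.305 and 0.305. The pipeline was tested on simulated data. Per the series text each time point holds 4 independent experiments. Whether untreated arrays are separate mice is not stated, so their spread may be technical.

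The members and lists were chosen with earlier results of these data known. Values by array are given for the 3 replication and 3 mitotic members with the smallest p in the comparison with most calls, the 2 smallest in each other comparison with a call, and members whose probes disagree; up to 6 called genes of each other list are named, and the 10 genes most like the members. Not every such value is printed. Alternatives were scaling to 1 spread, no centring, the mean of all probes, probes on every array, array weights, the replicate number or the array run as a block, and leaving out each array. Added after seeing the data were leaving out arrays with a pancreas mean over 5, the first run alone, and leaving out replicates 1 and 2 at 0.5 h, which had low erythroid means.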

Additional observations from a re-analysis of the deposited data

Results flagged for a closer look

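A value was set apart where the gap between the highest or lowest array of a group and the nearest other was large for the group's range (Dixon's test at 95%). Over both class means and 18 members named by array, 239 groups were tested and 19 had such an array; chance alone marks about 1 in 20, and the values are not independent. In the 1 h group replicate 2 was the lowest array for the replication mean (-0.63), the mitotic mean (-1.54), Birc5 (-1.40), Mcm6 (-1.42) and Tk1 (-1.08). In untreated TNF-KO spleen replicate 4 was the highest for the replication mean (-0.04), the mitotic mean (-0.61), Mki67 (0.36), Birc5 (-0.05), Cdc6 (-0.12) and Plk1 (-0.37). In untreated BALB/c spleen replicate 5 was lowest for Gins1 (-0.81) and replicate 6 highest for Fen1 (1.18). The other values were Mad2l1 at 9 h (replicate 2, highest, -0.28), Mki67 at 24 h (replicate 4, highest, 0.59), Tk1 at 3 h (replicate 1, highest, 0.30) and at 24 h (replicate 2, highest, 0.77), Mcm6 after control ODN (replicate 1, lowest, -0.96) and Ccne1 in CpG-treated TNF-KO spleen (replicate 1, lowest, -0.98). The difference of CpG responses was called for no member between genotypes or strains.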

How the results depend on the processing

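Of 127 counts of called members under alternatives other than leaving out 1 array, 100 equalled the reported count or stayed within 1.5 times of it. Reported counts of 0 that stayed 0 are among these 100, so the tally says little about the counts above 0. All 72 alternative class means per group moved by less than 1 SD. No gene called in a comparison changed sign in its alternatives (852 values), and 147 of these values lost the call. Genes that were not called are outside that count, and Tyms at 72 h (-0.31) was above 0 by each of its other probes. At 72 h against untreated spleen (7 reported) the count was 16 with scaling to 1 spread, 31 (30 higher, 1 lower) with array weights and 2 with the replicate block. Between 24 and 72 h (2 reported) it was 4 with scaling, 12 with weights, 9 without arrays of a pancreas mean over 5 and 0 with the replicate block. At 3 h (0) it was 1, lower, with scaling, with probes on every array, with weights and with the run as a block, and at 24 h (0) it was 1, lower, with scaling, with weights and without pancreas-rich arrays. From 9 to 24 h (0) it was 2 with scaling, 2 with weights, 1 with probes on every array and 1 with the run block. CpG against control ODN (1) gave 4 with scaling, 3 with weights and 3 without pancreas-rich arrays. Untreated TNF-KO against control (0) gave 2 with weights, 3 with the replicate block and 7 with the run block, and the untreated strains (2) gave 1 with scaling and 1 without pancreas-rich arrays. At 1 h (0) the first run alone gave 1, lower. The share of all genes called under each alternative is not given here. Whether these counts changed more than those of all genes therefore cannot be read from them. The causes were not tested.

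Leaving out 1 array gave 0 to 14 members at 72 h, 0 to 5 from 24 to 72 h, 0 to 4 from 9 to 24 h, 0 to 2 for CpG against control ODN, 0 to 1 for CpG in C57BL/6 controls, 0 to 13 for untreated TNF-KO against control, 0 to 2 for the untreated strains, and 0 to 0 in the other comparisons. Same-numbered arrays of the paired groups did not correlate over 0.1 in every pair of any comparison checked (0.028 to 0.33 at 72 h against untreated and 0.078 to 0.42 from 24 to 72 h, with 3 of 4 pairs over 0.1 in each), and the numbers were not taken to pair the arrays. Correlations of arrays with different numbers were not recorded, so the check cannot exclude a pairing. With the replicate number as a block the counts were 2 at 72 h and 0 from 24 to 72 h. The run block could not be fitted for 72 h, control ODN, CpG against control ODN or the untreated strains, and leaving out pancreas-rich arrays left too few C57BL/6 arrays in some comparisons.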

Other observations

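Some genes that control entry into and exit from the cell cycle were called in the first hours after CpG ODN. Gadd45b, a stress sensor of the Gadd45 family, rose by 1.34 ± 0.20 on the log2 scale at 0.5 h, 3.05 ± 0.20 at 1 h, 3.05 ± 0.20 at 3 h, 1.89 ± 0.20 at 9 h and 0.92 ± 0.20 at 24 h (adjusted p = 0.000212, 7.16e-13, 2.2e-13, 2.25e-08 and 0.0033, limma). Btg2, an antiproliferative gene, rose at 0.5 h (0.95 ± 0.19) and 1 h (0.87 ± 0.19) and fell at 9 h (-0.66 ± 0.19) and 24 h (-0.98 ± 0.19). At 0.5 h both lost their call without replicates 1 and 2, with Gadd45b then at 1.19 and Btg2 at 0.71. The Btg2 call at 9 h was kept in 4 of the 10 fits that left out 1 array. It was lost with the replicate number or the array run as a block and without arrays of a pancreas mean over 5. The Btg2 call at 24 h was lost with the array run as a block. Myc rose at 1 h (1.03 ± 0.21) and 3 h (1.09 ± 0.21), as did Cdkn1a, the p21 inhibitor of cyclin-dependent kinases (0.87 ± 0.17 and 0.70 ± 0.17). Ccnd2, cyclin D2, rose at 3 h (1.40 ± 0.33, adjusted p = 0.00321), and in C57BL/6 spleen by 1.57 ± 0.23 in controls and 0.86 ± 0.23 in TNF-KO mice (adjusted p = 0.000257 and 0.0449), a pair whose difference was not called. The TNF-KO call was kept in 1 of the 8 fits that left out 1 array (adjusted p up to 0.18) and was lost without centring. Of 35 measured genes of this list 2 rose at 0.5 h, 4 at 1 h, 6 with 2 lower at 3 h, 1 with 2 lower at 9 h, 2 with 1 lower at 24 h and 5 with 2 lower at 72 h. The share of all genes called was 0.256%, 3.3%, 9.96%, 6.96%, 8.45% and 10.6% at these times, so that the counts at 9 and 24 h lay near it.

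At 72 h Ccnd1, cyclin D1 (-1.0 ± 0.24, adjusted p = 0.0077), and Btg1 (-1.36 ± 0.42, adjusted p = 0.0356) fell, while Wee1, the kinase that restrains Cdk1 (0.81 ± 0.20), E2f4 (0.94 ± 0.26), the pocket protein gene Rbl1 (0.71 ± 0.20) and Gadd45a (0.96 ± 0.28) rose. Ccnd1 lost its call with the mean of all its probes (-0.44), and Btg1 kept its call in 4 of the 10 fits that left out 1 array and stood at -0.66 without replicate 3 of the 72 h arrays. In untreated TNF-KO spleen E2f2 (-1.82 ± 0.34, adjusted p = 0.028) and Gadd45a (-1.61 ± 0.34, adjusted p = 0.0405) were lower than in controls, beside the lower erythroid markers of 3 of those arrays. Both calls were lost with arrays scaled to the same spread, and with 1 of the 8 arrays left out in turn E2f2 kept its call in 3 fits and Gadd45a in 2.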
